A study of Mus musculus with 20 samples.

Results

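Serine is made from the glycolytic intermediate 3-phosphoglycerate in a sequence of reactions run by Phgdh, Psat1 and Psph, and is then split by the hydroxymethyltransferases Shmt1 and Shmt2 into glycine and a folate-bound carbon unit. ATF4 is a transcription factor whose translation rises when amino acids run short or the endoplasmic reticulum is stressed, and it drives genes of amino acid synthesis, uptake and transfer RNA charging, among them Phgdh, Psat1, Asns, Trib3 and Slc7a11. The 10 genes described here are Phgdh, Psat1 and Psph for serine synthesis, Shmt1, Shmt2 and Mthfd2 for the folate steps, Atf4 itself, and Asns, Trib3 and Slc7a11 as its target genes. They were named from pathway knowledge and picked with their difference between genotypes already known. Values in that comparison are therefore given as a description, with no test. All probe sets that carry the symbol of 1 of these genes alone were used, which gave 25 of the 22690 probe sets, for 10 of 12393 named genes.

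The cells were primary mouse embryonic fibroblasts, connective tissue cells cultured from embryos of 13.5 days post coitum. There were 10 cultures from 5 E2F4 null embryos, 2 from each, and 10 cultures from 3 wild type embryos (3, 3 and 4). Each culture was measured on its own 1-colour Affymetrix array. E2F4 is an E2F family transcription factor that mostly represses cell cycle genes, and the comparison asks what its loss changes in these cells. The labels give neither the allele, the strain, the sex nor the litter. Because cultures share their embryo, n counts embryos throughout. In whole cultures, fewer cells of a type and less RNA per cell cannot be told apart.

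The arrays had been brought to a common level, with a 2% trimmed mean of 500.2 and medians of 134.8 to 145.6. Cultures of the same embryo correlated at r = 0.985 to 0.990 over probe sets and those of different embryos at 0.971 to 0.988. All 12 fibroblast markers passed the filter on low signals, against 0 of 5 endothelial, 0 of 3 erythroid, 2 of 5 epithelial, 2 of 5 neural and 2 of 5 skeletal muscle markers. The 5 skeletal muscle markers varied widely between embryos, with a summed signal of 376 to 3388 in null and 487 to 4177 in wild type embryos. Macrophage and leukocyte markers passed for 9 of 10, with a summed signal of 1451 to 4795 in null embryos and 1778 to 2788 in wild type embryos. The pan-leukocyte marker Ptprc was the exception, at 35.0 to 78.8 in null embryos and 36.8 to 78.3 in wild type embryos. E2f4 itself had signals of 157, 167, 156, 155 and 197 in null embryos 1 to 5, against 209, 212 and 222 in wild type embryos 1 to 3. The groups did not overlap by embryo means, though single cultures did (up to 204.0 in null, down to 187.8 in wild type). Embryo means separated downward in this way for 3.71% of the genes tested. E2f4 was not called in the limma comparison of genotypes (adjusted p = 0.36). It has a single probe set, and the removed stretch of the gene is not in the labels, so these values check the labels only in part.

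Promoter sequence is shown for the genes whose window held letters known from ATF4 sites. RefSeq windows of GRCm38.p6, from 250 bases before to 50 bases after a gene start, were matched for 10 of 10 genes (11 windows, Psat1 having 2). The core of the C/EBP-ATF response element, TGATGNAA on either strand, was in the windows of 3 of the 10 genes, Asns, Slc7a11 and Trib3, while it was in 3.97% of all 32851 windows. In Asns it started 23 bases before the gene start, and in Slc7a11 it occurred 2 times on opposite strands, 66 and 47 bases before the start. In Trib3 it lay on the strand opposite to the gene, 14 bases after the start. The related letters TGGTGCAA, searched for only after the windows had been read, were in Trib3, 33 bases before the start, and in the upstream window of Psat1, 136 bases before it, and in 0.536% of all windows. Neither the cyclic AMP element TGACGTCA (1.79% of all windows) nor the E2F letters TTTCCCGC, TTTGGCGC, TTTCGCGC and TTTGCCGC (2.26%) were in any of the 11 windows. No motif overlapped another. The 4 windows are printed from 5′ to 3′ on the gene's strand, with the matched letters in capitals. They lie at chr6:7693160-7693459 (Asns), chr3:50443564-50443863 (Slc7a11), chr2:152344011-152344310 (Trib3) and chr19:15925010-15925309 (Psat1), all on the minus strand.
Asns: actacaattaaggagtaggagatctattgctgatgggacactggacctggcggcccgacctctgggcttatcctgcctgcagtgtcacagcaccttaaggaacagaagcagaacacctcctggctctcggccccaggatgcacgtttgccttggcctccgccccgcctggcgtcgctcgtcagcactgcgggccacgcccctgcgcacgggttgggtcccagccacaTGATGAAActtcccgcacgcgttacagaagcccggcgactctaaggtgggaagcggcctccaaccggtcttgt
Slc7a11: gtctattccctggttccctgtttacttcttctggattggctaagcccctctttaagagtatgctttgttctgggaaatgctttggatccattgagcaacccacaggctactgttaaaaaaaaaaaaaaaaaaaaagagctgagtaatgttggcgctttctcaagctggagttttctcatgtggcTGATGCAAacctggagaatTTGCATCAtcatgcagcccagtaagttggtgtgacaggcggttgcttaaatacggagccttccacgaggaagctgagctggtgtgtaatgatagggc
Trib3: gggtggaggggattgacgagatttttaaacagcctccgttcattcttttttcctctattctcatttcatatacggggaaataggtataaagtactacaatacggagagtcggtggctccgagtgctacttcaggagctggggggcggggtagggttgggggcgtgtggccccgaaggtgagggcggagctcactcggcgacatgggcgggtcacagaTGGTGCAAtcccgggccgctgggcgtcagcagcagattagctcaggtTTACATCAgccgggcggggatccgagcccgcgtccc
Psat1: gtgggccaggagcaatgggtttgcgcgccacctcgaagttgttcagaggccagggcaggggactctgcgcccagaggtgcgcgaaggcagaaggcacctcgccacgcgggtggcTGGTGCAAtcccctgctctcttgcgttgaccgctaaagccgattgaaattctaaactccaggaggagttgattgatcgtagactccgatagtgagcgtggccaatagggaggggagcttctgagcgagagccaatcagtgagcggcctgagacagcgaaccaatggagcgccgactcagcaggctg

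In E2F4 null embryos all 10 genes had a higher mean than in wild type embryos. The difference on the log2(signal + 16) scale ran from 0.21 to 0.54 with a median of 0.31, beside a median of -0.003 over the 7436 genes tested. All 25 probe sets of the 10 genes lay above 0, from 0.10 to 0.77, while 49.0% of the genes tested did. For 4 of the 10, Phgdh, Psat1, Atf4 and Slc7a11, every null embryo lay above every wild type embryo, which was so for 2.95% of the genes tested. Because the genes were picked on this comparison, these shares are no evidence of a change. In limma with Benjamini-Hochberg adjustment over all genes, 0% were called higher and 0.0134% lower in the null, and 0 of the 9 genes with a test were called, while 647 of all genes had an unadjusted p under 0.05. Slc7a11 fell under the filter on low signals and was not tested.

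**Figure D1:**
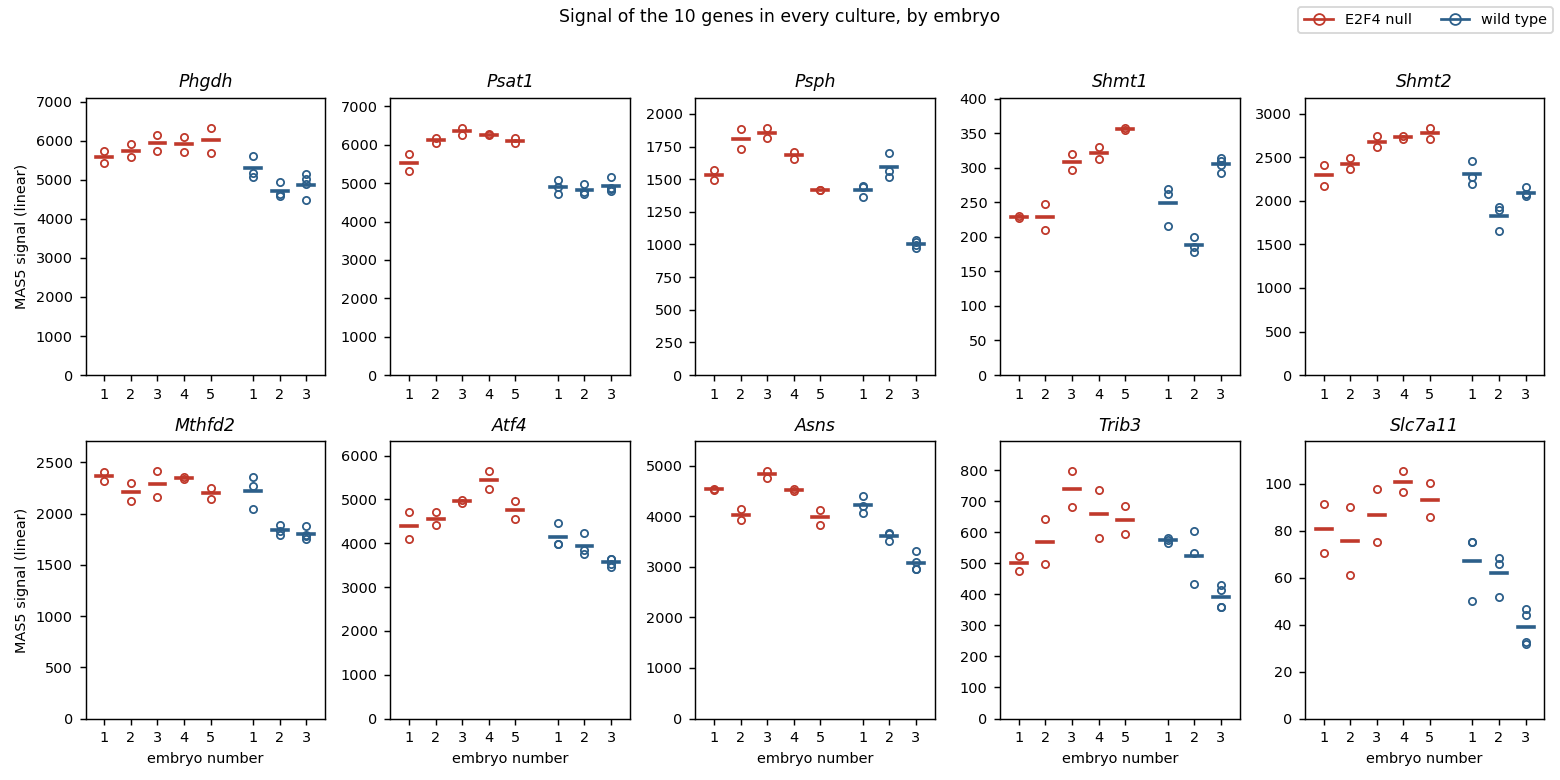
MAS5 signal (linear, from 0) of the probe set used for each of the 10 genes, with a circle for each culture and a bar at the mean of each embryo, E2F4 null embryos 1 to 5 on the left and wild type embryos 1 to 3 on the right of each panel. Psat1 cultures of the wild type embryos lie together below the null cultures, whereas Psph, Asns and Trib3 are lowest in wild type embryo 3.

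The first enzymes of serine synthesis had small and even differences. Phgdh, the dehydrogenase that opens the pathway (chromosome 3), had 5588, 5753, 5955, 5908 and 6019 in null embryos 1 to 5, against 5293, 4720 and 4881 in wild type embryos 1 to 3. The groups did not overlap, and wild type embryo 1 came nearest to the null embryos. The difference was 0.24 (log2, SE 0.06), and the other 3 Phgdh probe sets gave 0.21, 0.24 and 0.33, again without overlap. All 4 are of the array's x type, whose probes may also bind related sequences. Psat1, the aminotransferase of the middle step (chromosome 19), had 5539, 6122, 6359.5, 6260.5 and 6110 in null embryos 1 to 5, against 4899, 4815 and 4918 in wild type embryos 1 to 3. Wild type embryos were almost level and null embryo 1 was nearest to them. The difference was 0.32 (SE 0.06), and the other probe set gave 0.27, with null embryo 1 (2855) below wild type embryo 3 (2882).

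Psph, the phosphatase that releases serine (chromosome 5), differed more between embryos of 1 genotype than between genotypes. It had 1534, 1807, 1855, 1683 and 1419 in null embryos 1 to 5, against 1417, 1591 and 1007 in wild type embryos 1 to 3. Null embryo 5 was level with wild type embryo 1, and wild type embryo 3 stood below all others. The difference was 0.33 (SE 0.15) and came to 0.14 without wild type embryo 3. Psph has a single probe set here, so agreement between probe sets could not be read.

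Among the folate enzymes, mitochondrial Shmt2 (chromosome 10) had 2294, 2426, 2682, 2730.2 and 2776 in null embryos 1 to 5, against 2307, 1824 and 2094 in wild type embryos 1 to 3. Of the null embryos 4 lay above all wild type embryos, and null embryo 1 lay just under wild type embryo 1. The difference was 0.32 (SE 0.09). Its other bright probe set gave 0.32 as well, while a pair of dim ones gave 0.77 and 0.12, with signals of 86.1 to 230.7. Mthfd2, the mitochondrial dehydrogenase and cyclohydrolase of the next step (chromosome 6), had 2362, 2214, 2287, 2346 and 2196 in null embryos 1 to 5, against 2222, 1838 and 1801 in wild type embryos 1 to 3. Wild type embryo 1 lay among the null embryos and the other wild type embryos well below them. The difference was 0.23 (SE 0.08), and 0.24 by the other probe set, whose groups did not overlap.

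Cytosolic Shmt1 (chromosome 11) did not separate by genotype. It had 228, 228, 308, 321 and 356 in null embryos 1 to 5, against 249, 188 and 305 in wild type embryos 1 to 3. The groups ran through each other, with null embryos 1 and 2 and wild type embryos 1 and 2 low and the others high. The difference was 0.21 (SE 0.19), and the other 3 probe sets gave 0.23, 0.10 and 0.30. Without wild type embryo 2 it was 0.04. Of 17 proliferation genes tested 14 lay above 0, with a median difference of 0.12, which was -0.09 without wild type embryo 2 and 0.28 without wild type embryo 3. They had mean deviations of -0.18, -0.13, 0.13, 0.19 and 0.21 in null embryos 1 to 5, against 0.02, -0.52 and 0.28 in wild type embryos 1 to 3. The embryos low in Shmt1 were thus also those with the 4 lowest deviations of proliferation genes. They also had the 4 highest deviations of the 2 skeletal muscle markers tested (-0.13 to 1.65, against -0.95 to -0.86 in the others). The same held for the 2 neural markers tested (-0.001 to 0.52, against -0.37 to -0.08). The part of the proliferation genes and of these markers in the Shmt1 result was not tested.

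Atf4 mRNA (chromosome 15) had 4397, 4555, 4956, 5447.5 and 4764 in null embryos 1 to 5, against 4143, 3940.4 and 3569 in wild type embryos 1 to 3. Every null embryo was above every wild type embryo, null embryo 4 by most. The difference was 0.31 (SE 0.08). The second probe set gave 0.50 without overlap. The third had signals of 2.2 to 17.5, far under the other Atf4 probe sets, and gave 0.21 with overlap. All 9 macrophage and leukocyte markers tested lay above 0, with a median difference of 0.32 and overlapping groups. These markers had mean deviations (log2) of -0.53, 0.05, 0.04, 0.81 and 0.13 in null embryos 1 to 5, against -0.38, 0.24 and -0.36 in wild type embryos 1 to 3. Among null embryos, embryo 4 was thus highest and embryo 1 lowest for both the markers and Atf4. Among wild type embryos, embryo 1 had the lowest markers but the highest Atf4. The part of the markers in the Atf4 values was not tested.

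Asns, Trib3 and Slc7a11 were each lowest in wild type embryo 3. Asns, which makes asparagine from aspartate (chromosome 6), had 4535, 4032, 4828, 4518 and 3976 in null embryos 1 to 5, against 4225, 3609.9 and 3084 in wild type embryos 1 to 3. Wild type embryo 1 lay among the null embryos, and wild type embryo 3 lay lowest. The difference was 0.27 (SE 0.11), and 0.16 without wild type embryo 3. By the other Asns probe set it was 0.40 and the groups did not overlap. Trib3, a pseudokinase that feeds back on ATF4 (chromosome 2), had 499, 569.8, 739, 657.5 and 639 in null embryos 1 to 5, against 573, 523 and 390.5 in wild type embryos 1 to 3. Null embryo 1 lay below wild type embryos 1 and 2, and null embryo 2 just below wild type embryo 1. The difference was 0.32 (SE 0.15), 0.36 by the other probe set, and 0.17 without wild type embryo 3. Slc7a11, the cystine transporter subunit (chromosome 3), was dim, with 80.7, 75.5, 86.4, 100.8 and 93.1 in null embryos 1 to 5, against 66.9, 61.9 and 38.8 in wild type embryos 1 to 3. The groups did not overlap by embryo means, though single cultures did. The difference was 0.54 (SE 0.16, from a fit over every probe set) and fell to 0.36 without wild type embryo 3.

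**Figure D2:**
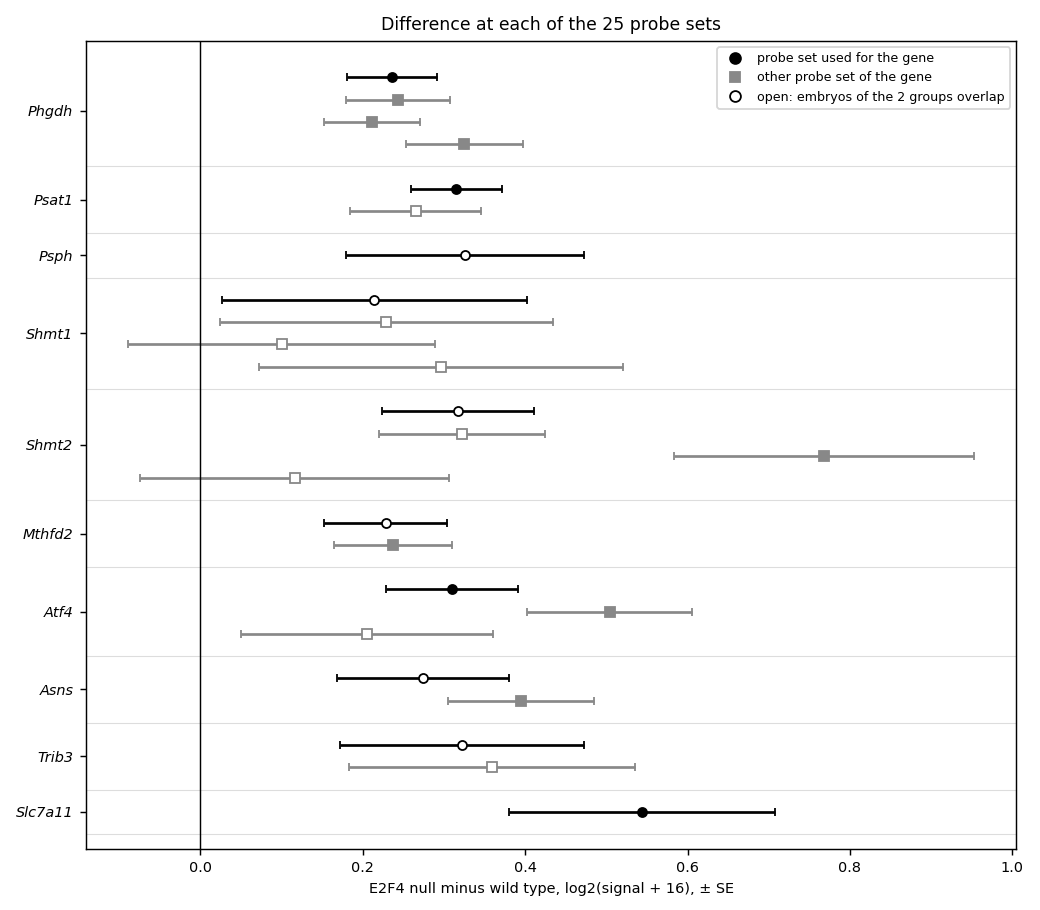
Difference between E2F4 null and wild type embryos on the log2(signal + 16) scale with its SE at each of the 25 probe sets, grouped by gene; circles are the probe set used for the gene, squares its other probe sets, and open symbols mark overlap between the embryos of both groups. All points lie above 0, and those of Phgdh, Psat1, Shmt1, Mthfd2, Asns, Trib3 and the bright Shmt2 probe sets have overlapping SE bars within each gene.

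Whether embryos of 1 genotype differed beyond their cultures does not use the comparison of genotypes. It was tested by an F test in limma, with cultures as the units. Among null embryos 4 of the 9 genes passed, where 22.9% of all genes did. These were Shmt1 (F = 11.4, adjusted p = 0.0042), Psph (F = 10.2, adjusted p = 0.0062), Asns (F = 6.86, adjusted p = 0.023) and Shmt2 (F = 5.56, adjusted p = 0.041). Without null embryo 2, Psph and Shmt1 passed, and without null embryo 5, Atf4, Shmt1 and Trib3 did. Shmt1 and Shmt2 were each highest in null embryo 5 and lowest in null embryos 1 and 2, while Psph and Asns were highest in null embryo 3 and lowest in null embryo 5. Psat1 and Phgdh did not pass (adjusted p = 0.17 and 0.74).

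Among wild type embryos 7 of the 9 genes tested differed, where 50.1% of all genes did. The largest F belonged to Psph (71.9, adjusted p = 8.5e-07) and Asns (37.1, adjusted p = 2.4e-05). For both genes the culture ranges of the 3 wild type embryos lay apart. Psph was highest in embryo 2 (cultures 1514 to 1698), then embryo 1 (1361 to 1446), then embryo 3 (976 to 1037). Asns was highest in embryo 1 (4062 to 4401), then embryo 2 (3512 to 3668), then embryo 3 (2956 to 3314). Shmt1 (F = 24.0, adjusted p = 0.00019) also had 3 separate ranges, in the order of embryos 3, 1 and 2. So did Shmt2 (F = 13.1, adjusted p = 0.0023), in the order of embryos 1, 3 and 2.

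Mthfd2 differed between wild type embryos with F = 15.5 and adjusted p = 0.0012, and its embryos 2 and 3 overlapped. Trib3 had F = 15.5 and adjusted p = 0.0012, and Atf4 had F = 7.43 and adjusted p = 0.016. In both, wild type embryos 1 and 2 overlapped and embryo 3 lay apart below them. Phgdh (adjusted p = 0.084) and Psat1 (adjusted p = 0.84) did not pass here either. Leaving out an embryo left 5 genes passing in each case. Atf4 and Mthfd2 were lost without wild type embryo 1, Shmt1 and Shmt2 without wild type embryo 2, and Psph, Atf4 and Trib3 without wild type embryo 3, where Phgdh passed. With quantile normalization Phgdh passed among wild type embryos, and Psat1 and Atf4 among null embryos. The log2 means of the wild type embryos spanned 0.03 for Psat1 and 0.16 for Phgdh, against 0.65 for Psph, which acts last in the same pathway. Cultures of 1 embryo had a pooled SD (log2) of 0.04 for Psat1, 0.05 for Asns, 0.06 for Psph and 0.17 for Trib3.

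**Figure D3:**
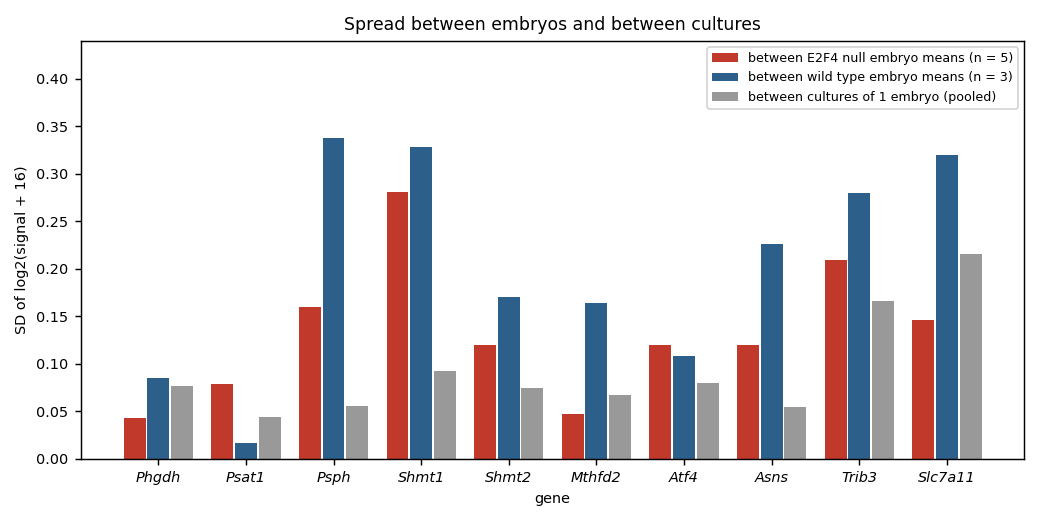
SD on the log2(signal + 16) scale for each of the 10 genes, with bars from 0 for the spread between the 5 E2F4 null embryo means, between the 3 wild type embryo means and between cultures of 1 embryo pooled over all embryos. Psph, Shmt1 and Asns have embryo spreads well above their culture spread, whereas Psat1 has a wild type embryo spread (0.02) below its culture spread (0.04).

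Over the 10 genes together, wild type embryo 3 was the lowest of the 8 embryos for 6, and wild type embryo 2 for the other 4. The highest embryo was a null embryo for all 10, among them null embryo 3 for 4 and null embryo 5 for 3. Averaged over the 10 genes, the deviation from the mean of the 8 embryos was -0.001, 0.04, 0.20, 0.21 and 0.14 in null embryos 1 to 5, against -0.06, -0.21 and -0.31 in wild type embryos 1 to 3. The null embryos thus all lay above the wild type embryos on this average, and null embryo 1 came nearest to wild type embryo 1. Because the 10 genes were picked with the difference between genotypes known, this separation is no evidence of a change.

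Other genes of the pathways were compared in the same fit. Their lists were written by role with earlier results of these data known, so their shares are no independent check. None of these genes was called. Of 30 further ATF4 targets that passed the filter, 26 had a difference above 0, where 49.0% of all genes tested did. Their median was 0.20 (log2), and 0.11 without wild type embryo 3. Every null embryo was above every wild type embryo for 4 of them, where this was so for 2.95% of all genes tested. Sesn2, a leucine sensor that restrains mTORC1, had 357 ± 19.3 in null embryos and 280.1 ± 32.0 in wild type embryos (SD, n = 5 and 3), a difference of 0.34, though its other probe set gave 0.05. Stc2, a secreted stanniocalcin, had 139 ± 20.8 in null and 103 ± 5.07 in wild type embryos, at 0.38. Aldh18a1, which starts proline synthesis, differed by 0.23 and its other 4 probe sets by 0.15 to 0.39. The fourth was Jdp2, an AP-1 family repressor, named after its values were seen, at 0.24.

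Further ATF4 targets were named by role. Gpt2, an alanine aminotransferase, differed by 0.41, the glutathione-degrading enzyme Chac1 by 0.29, the factor Ddit3 by 0.32, Atf3 by 0.25, Vldlr by 0.30 and the mitochondrial carboxykinase Pck2 by 0.24. Ddit3 had 934, 876, 987, 1031 and 978 in null embryos 1 to 5, against 887, 1035 and 486 in wild type embryos 1 to 3, so that wild type embryo 3 alone lay apart. The 4 of the 30 that lay below 0 were Atf5 at -0.01 (SE 0.14), Ppp1r15a, the phosphatase subunit that reverses the stress signal, at -0.02 (SE 0.10), Nupr1 at -0.12 (SE 0.30) and Cebpb at -0.25 (SE 0.18). Cebpg, a partner of ATF4, differed by 0.17 and by -0.24 and 0.12 at its other probe sets, Ddit4 by 0.13 and Bcat1 by 0.14. The other Bcat1 probe set gave 0.02.

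Among amino acid transporters, Slc7a5 had 1916 ± 421 in null and 1449 ± 203 in wild type embryos (difference 0.38), and its partner chain Slc3a2 differed by 0.18. Slc1a4 differed by 0.16, Slc38a2 by 0.09 and the dim, untested Slc7a1 by 0.20. The glutamine transporter Slc1a5 differed by 0.89 with an SE of 0.53. It had 547, 359, 719, 679.5 and 668 in null embryos 1 to 5, against 584, 86.9 and 528 in wild type embryos 1 to 3, and only wild type embryo 2 was outside the range of the null embryos.

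All 11 transfer RNA synthetases counted as ATF4 targets lay above 0, with a median of 0.18 and a range of 0.06 to 0.22. Without wild type embryo 3 the median was 0.11. The alanyl enzyme Aars had 3858 ± 155 in null and 3387 ± 228 in wild type embryos (SD, n = 5 and 3), a difference of 0.19, and 0.09 at its other probe set. The asparaginyl enzyme Nars had 6589 ± 238 in null and 5664 ± 562 in wild type embryos, a difference of 0.22, and 0.04 at its other probe set. At the probe sets used neither overlapped, as for 2.95% of all genes tested. Sars differed by 0.15, Gars by 0.07, Wars by 0.06 and Xpot, which exports transfer RNA from the nucleus, by 0.13. The other Wars probe sets gave 0.14, 0.14 and 0.25. Of 7 synthetases not usually counted as ATF4 targets 5 lay above 0, with a median of 0.11. Leaving out null embryo 5 gave 0.06, leaving out wild type embryo 2 gave 0.04, and leaving out wild type embryo 3 gave 0.14, the last above the 0.11 of the ATF4-target synthetases without that embryo. The difference between both medians was not tested.

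The list of other folate and glycine genes had 9 tested of 26, of which 8 lay above 0 with a median of 0.12. Mthfd1, the cytosolic folate enzyme, differed by 0.03 at the probe set used and by 0.15 and 0.43 at the others. The kinases that phosphorylate eIF2 and thereby raise ATF4 translation had no shared direction. Eif2ak1 (HRI) differed by 0.12, Eif2ak2 (PKR) by -0.11, Eif2ak4 (GCN2) by -0.03 and Eif2ak3 (PERK) by -0.18, the last with every null embryo below every wild type embryo (370, 370, 376, 347 and 384 in null embryos 1 to 5, against 462, 412 and 395 in wild type embryos 1 to 3). The other Eif2ak3 probe sets gave -0.17 and 0.06, and those of Eif2ak1 -0.01 and 0.24, so both directions rested on the probe set. A separation downward like that of Eif2ak3 was found for 3.71% of the genes tested.

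Endoplasmic reticulum chaperones, targets of the other arms of the stress response, had 9 of 16 above 0, a median of 0.01 and a range of -0.50 to 0.25. The median was -0.004 without null embryo 1, 0.06 without wild type embryo 1 and 0.06 with every probe set counted. Every null embryo lay above every wild type embryo for 3 of the 16, and below for 2. These separations were found for 2.95% and 3.71% of all genes tested. Hspa5 (BiP) differed by 0.09, and by 0.26 at its other probe set. NRF2 targets, which share Slc7a11 as a target gene, had 4 of 10 above 0 and a median of -0.02, which was -0.11 without wild type embryo 3 and -0.07 without wild type embryo 1. Nqo1, a quinone reductase, was the lowest of these at -0.61, with 329 ± 23.3 in null and 513 ± 88.8 in wild type embryos. Myc, another regulator of serine and folate enzymes, differed by -0.05.

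**Figure D4:**
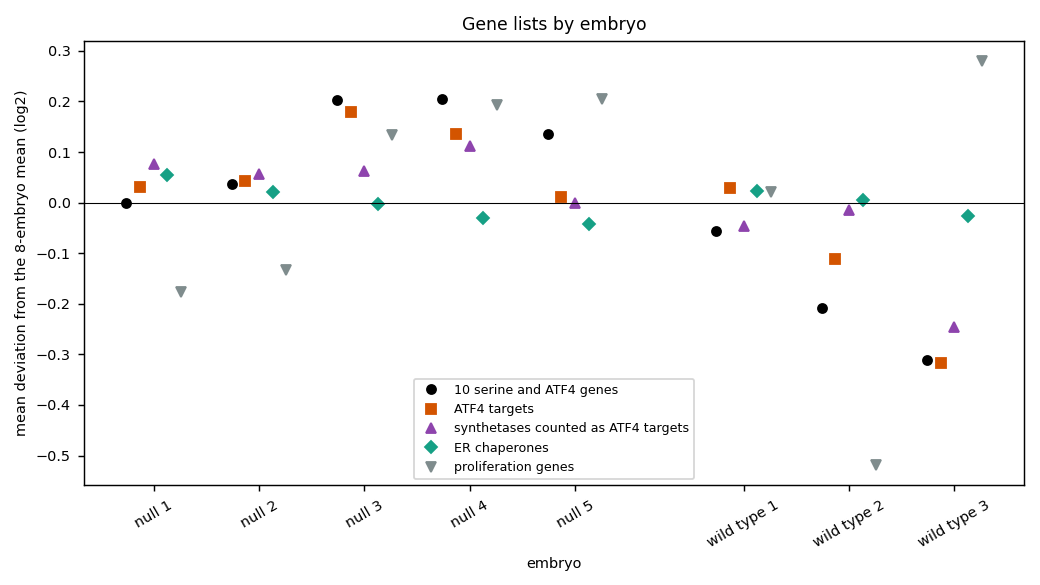
Mean deviation (log2) of the 10 genes and of 4 gene lists from the mean of the 8 embryos, with 1 symbol per list at each embryo, E2F4 null embryos on the left and wild type embryos on the right. Wild type embryo 3 has the lowest values of the 10 genes (-0.31), ATF4 targets (-0.32) and synthetases (-0.25) but the highest of the proliferation genes (0.28), and chaperones stay between -0.04 and 0.06.

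The pattern over embryos, taken after each genotype's mean was subtracted, was not the same for Asns and Psat1. Over 8 embryos Asns had r = 0.84 with Mthfd2, 0.67 with Trib3, 0.63 with Psph, 0.59 with Atf4 and 0.42 with Phgdh. With Shmt2 it had 0.22, with Psat1 0.01 and with Shmt1 -0.22. Psat1 had r = 0.64 with Shmt2, 0.61 with Trib3, 0.58 with Atf4, 0.55 with Shmt1 and 0.55 with Phgdh. With Psph it had 0.19 and with Mthfd2 -0.11. Of 7435 genes, Mthfd2 ranked 34 by its r with Asns, and Shmt2 ranked 603 by its r with Psat1. Outside the 10 genes, those most like Asns of 7427 were Glce (r = 0.98), Chmp4b, Fem1b, B4galt1 and Mdfic (0.92 to 0.94). Those most like Psat1 were Mrps23 (r = 0.97), Eef1akmt1, Fbxo42, Cilk1 and Hoxd8 (0.96 to 0.97). These correlations describe 8 points that come from the same arrays, and with so many genes high values are common.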

How the data were processed

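The authors deposited signal intensities, linear and 1 for each probe set on each array, with MAS5 named as the tool in the submitters' processing notes. Its version and scaling target are not given here. Every array had a 2% trimmed mean of 500.2, so no further scaling was applied, and a change common to most genes would not show. No detection calls were used, and a filter stood in for them. The number of embryos limits the precision.

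Of 22690 probe sets, 64 were controls, 20380 had 1 gene symbol, 691 several and 1555 were unlisted in the platform annotation. Gene identifiers were used to bring symbols up to date from the RefSeq table of GRCm38.p6 (20351 matched), from which chromosomes are taken. Signals were converted to log2(signal + 16), which understates the change of low genes, and averaged per embryo. Each gene was read from its probe set of highest mean. Genes whose mean fell below percentile 40 were dropped, which left 7436 of 12393.

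Embryo means entered a two-sided limma fit (version 3.58.1, R 4.3.3; lmFit, then eBayes with trend), with E2F4 null minus wild type as the contrast, and embryos within a genotype by limma's F test over cultures, both adjusted after Benjamini-Hochberg over all genes tested at a threshold of 0.05. The fits were checked on simulated data. Same-numbered embryos of both genotypes had deviations correlated at r = 0.06, 0.63 and 0.45 over genes. Embryos of different numbers were not compared in this way, so these values cannot decide whether numbers pair embryos. The labels give no pairing, so the number was not used as a pairing.

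The 10 genes, the lists and the tests were chosen with earlier results of these data known. Named genes were the 10, E2f4, list members called, genes set by role, and the 5 genes outside the 10 with the highest Pearson r to Asns and to Psat1. Cultures of 1 embryo may be technical repeats, and the F tests measure only the spread between them. Alternatives covered the pseudocount, filter, normalization, probe set choice, blocks and left-out embryos.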

Additional observations from a re-analysis of the deposited data

Results flagged for a closer look

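A check for a single null embryo far from the rest was made over the 5 null embryos for the 10 genes and E2f4, and chance alone marks about 1 in 20 such groups. Psat1 was marked for null embryo 1, the lowest, whose gap to the nearest embryo was 0.712 of the range of the null embryos on the log2 scale. Its signal was 5539, against 6110 to 6359.5 in null embryos 2 to 5. E2f4 was marked for null embryo 5, the highest, with a gap of 0.717 of the range. Its signal was 197, against 155 to 167 in null embryos 1 to 4.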

How the results depend on the processing

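All 10 genes kept a difference above 0 under every alternative run, and their median difference, 0.31, ran from 0.24 to 0.37 with an embryo left out. With the embryo number as a replicate block, which leaves null embryos 4 and 5 without a partner, the median was 0.26, and 0 genes were called in all. Under this block Shmt1 differed by 0.05 and Psph by 0.39, and the proliferation genes had a median of 0.01. Over all genes, 1 was called. The count was 0 with every probe set tested and with cultures 1 and 2 only, 80 with cultures and the embryo as a random block, 38 with the culture number as a replicate block, and 0 to 11 with an embryo left out (11 without wild type embryo 2). Of the 10 genes, the random block called 3 (Psat1, Atf4 and Shmt2) and the culture number block 1 (Psat1). Over all 7436 genes tested these settings called 80 and 38. Both take cultures as the units, and the 10 genes were picked on this comparison, so these calls are no evidence of a change. Of the other lists, the random block called 4 (Gpt2, Iars, Nars and Nqo1) and the culture number block 1 (Nqo1), and leaving out an embryo called 0 to 1 (Nqo1 without wild type embryo 2). Null embryos lay above all wild type embryos for 4 of the 10 genes, and for 3 with cultures 1 and 2 only (without Slc7a11). They did for 7 with the mean of all probe sets of a gene, and for 4 to 7 with an embryo left out (7 without wild type embryo 1). The share of all genes tested was 2.95% before any alternative and was not counted under the alternatives. Leaving out an embryo makes such a separation easier for any gene, so the rise is not read as a result. The F test called 1700 genes in null and 984 without null embryo 2 (984 to 1714 over left-out embryos), where 2 of the 10 genes passed (2 to 3 over left-out embryos), and 3723 in wild type and 1119 without wild type embryo 2 (1119 to 3391). The causes were not tested. Leaving out the 2 arrays with the most deviant controls, chosen after seeing the data, moved none of these counts by over 1.5 times. Low signals (Slc7a11, the dim probe sets of Shmt2 and Atf4) limit what can be read there.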

Other observations

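Slc1a5, the glutamine transporter, was low in all 3 cultures of wild type embryo 2, with signals of 76.1, 69.6 and 114.9, against 467.7 to 651.7 in the other 7 wild type cultures and 337 to 794.8 in the 10 null cultures. The culture ranges did not overlap. The same embryo had the lowest deviation of proliferation genes, -0.52 (log2).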
